A study of Mus musculus with 6 samples.

Results

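Sm and LSm proteins and the proteins that join them in splicing ribonucleoproteins were compared between MHCII-hi and MHCII-lo cells of mouse bone marrow. The labels call these cells hematopoietic stem cells. The set was every row of the deposited tables whose gene symbol begins with Lsm and a digit, Snrp or Snrnp, which gave 33 of 30803 rows. No row had to be left out for a -ps ending. By known role, 18 rows were proteins of the Sm, LSm or U7 rings, 11 were proteins specific to a spliceosomal particle, 3 were other proteins with an LSm domain and 1, Snrpert, is annotated as a processed pseudogene. Expression was measured by RNA sequencing in 3 libraries of MHCII-hi cells and 3 libraries of MHCII-lo cells, sorted on the surface level of MHC class II, the molecule that presents peptides to helper T cells. All mice were wild type and 5 months old, and the labels name no transgene, deletion or treatment in either fraction. The labels mark all 6 libraries as control and do not give the other markers of the gate.

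Spliceosomal small nuclear ribonucleoproteins (snRNPs) are particles of a short RNA and proteins that remove introns from pre-mRNA. In the U1, U2, U4 and U5 particles, and in their minor counterparts, the RNA is held by a ring of small Sm proteins that is loaded in the cytoplasm by the SMN complex. U6 RNA instead carries a ring of the related LSm proteins, and a second LSm ring, in which Lsm1 takes the place of Lsm8, binds the ends of deadenylated mRNA in the cytoplasm and promotes decapping. In the U7 particle, which trims the ends of histone mRNA, Lsm10 and Lsm11 replace a pair of Sm proteins. Other proteins, often larger, belong to a single particle and recognise splice sites or drive its remodelling. Hematopoietic stem cells sit at the top of blood formation and most of them divide rarely, and splicing factors are recurrently mutated in clonal blood disease.

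Values are FPKM, a transcript level scaled to library size and transcript length, as inferred from the numbers themselves. They summed to 333347 to 333530 in MHCII-hi libraries and 305934 to 306945 in MHCII-lo libraries, read depth is unknown, and 12295 genes had a mean of at least 1 FPKM and were tested. The sort was visible in the class II genes: H2-Aa had 80.55, 81.30 and 79.68 FPKM in MHCII-hi libraries, against 7.37, 7.30 and 7.35 FPKM in MHCII-lo libraries. Of 11 stem cell markers, Slamf1, Procr, Mecom and Fgd5 stayed under the 1 FPKM minimum, 5 were higher in MHCII-hi and none was lower. Markers of other cells also differed between the fractions, and none was listed at 0 in all 6 libraries. All 14 B cell markers and all 8 plasma cell markers were higher in MHCII-hi, with summed levels of 258 to 267 FPKM in MHCII-hi against 36.1 to 39.5 FPKM in MHCII-lo for B cells, and 465 to 471 against 78.0 to 81.0 FPKM for plasma cells. Of 16 genes of cycling cells 15 were lower in MHCII-hi and 1 was higher (summed 811 to 816 FPKM in MHCII-hi against 1132 to 1144 FPKM in MHCII-lo), and 11 of 12 erythroid markers were lower (643 to 663 against 893 to 921 FPKM). Neutrophil and monocyte markers had by far the highest summed level of these lists, 22212 to 22496 FPKM in MHCII-hi against 17256 to 17338 FPKM in MHCII-lo, with 7 of 15 higher and 7 lower. S100a9, S100a8 and Ngp, granule and cytosol proteins of neutrophils, led them. S100a9 and Ngp averaged 7631 ± 48.7 and 5721 ± 25.6 FPKM in MHCII-hi and 5900 ± 12.4 and 2118 ± 24.6 FPKM in MHCII-lo (SD, n = 3 each). S100a8 averaged 3584 ± 59.5 FPKM in MHCII-hi and 3524 ± 21.2 FPKM in MHCII-lo, with overlapping fractions. The 11 stem cell markers summed to 52.1 to 53.4 FPKM in MHCII-hi and 35.0 to 35.6 FPKM in MHCII-lo. Among T and NK cell markers 5 of 9 were higher and 3 were lower (summed 177 to 185 FPKM in MHCII-hi against 185 to 190 FPKM in MHCII-lo). The part of these cells, and of the lower level of cycling genes, in the results that follow was not tested. In sorted bulk RNA, fewer cells of a type and less RNA per cell cannot be told apart. Nothing in the labels says that the 3 libraries of a fraction came from separate animals, so p-values measure the spread among these libraries, which may be technical.

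Transcripts of the set were lower in MHCII-hi cells far more often than higher. Of 33 members, 32 passed the minimum and were tested with limma (two-sided, Benjamini-Hochberg adjusted p under 0.05 over all genes tested). In MHCII-hi, 25 were lower, 2 were higher and 5 did not pass the test. The fractions differ broadly, since 67.8% of all genes tested were called by the same rule, 40.5% lower and 27.2% higher. Absence of overlap was common too. All MHCII-hi libraries lay below all MHCII-lo libraries for 43.3% of genes tested and above for 29.6%. The median log2 change of the 32 members, on the log2(FPKM + 1) scale and as MHCII-hi minus MHCII-lo, was -0.34, beside -0.08 over all genes tested. Without the pseudogene row, 24 of 31 were lower and 2 were higher, with a median of -0.30. With a median-of-ratios scaling of the tables, the whole-table calls changed to 4090 higher and 4001 lower, against 3348 higher and 4982 lower as deposited. Of the members, 19 were then lower and 2 were higher. Snrpd1 then stood at -0.14 and Lsm14a at -0.16, and Snrpa at 0.23 and Snrnp70 at 0.24, each moved by over 1.5 times. The members that stood furthest down were Lsm5, Snrpe, Lsm7 and Snrpb, and the only 2 that were higher were the U1 proteins Snrnp70 and Snrpa.

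**Figure D1:**
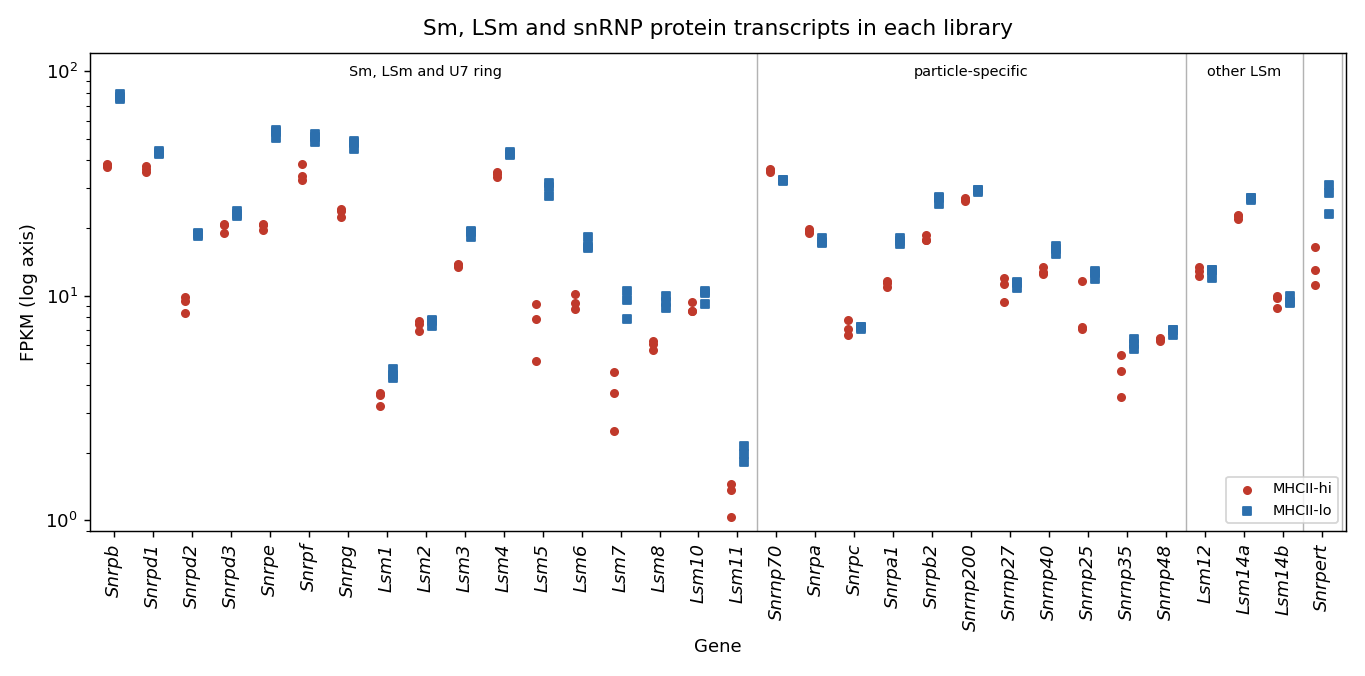
FPKM of each tested member in each library on a log axis, with the 3 MHCII-hi libraries as red circles left of the 3 MHCII-lo libraries as blue squares. Snrpb, Snrpe, Snrpg and Lsm5 stand well below in MHCII-hi, while the U1 proteins Snrnp70 and Snrpa stand slightly above.

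All 7 tested proteins of the Sm ring were lower in MHCII-hi, beside 40.5% of all genes tested, with a median log2 change of -0.95. Snrpb encodes the B and B′ proteins of the ring (chromosome 2, 130171414 to 130179403 in GRCm38, minus strand). Snrpb had 38.14, 37.46 and 38.44 FPKM in MHCII-hi libraries, against 75.11, 76.62 and 78.84 FPKM in MHCII-lo libraries. The libraries of each fraction lay close together and the fractions did not overlap. The mean was 38.0 ± 0.502 FPKM in MHCII-hi and 76.9 ± 1.88 FPKM in MHCII-lo (SD, n = 3 each), a ratio of 0.495, and the log2 change was -0.997 ± 0.02 (SE, limma adjusted p = 2.40e-07). Snrpe, the E protein (chromosome 1, 133603871 to 133610291, minus strand), had 19.68, 20.54 and 20.89 FPKM in MHCII-hi and 50.23, 53.64 and 54.45 FPKM in MHCII-lo. This was the lowest ratio of the Sm ring, 0.386, with a log2 change of -1.33 ± 0.04 (SE, limma adjusted p = 4.49e-07).

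Snrpg, the G protein (chromosome 6, 86371304 to 86379328, plus strand), had 23.78, 22.40 and 24.27 FPKM in MHCII-hi and 44.74, 48.95 and 47.55 FPKM in MHCII-lo. Snrpd2 encodes the D2 protein, which sits beside F in the ring (chromosome 7, 19149722 to 19153542, plus strand). Snrpd2 had 9.49, 8.37 and 9.89 FPKM in MHCII-hi and 18.43, 18.75 and 19.06 FPKM in MHCII-lo. The fractions were again far apart for both genes: the ratio of means was 0.499 for Snrpg (log2 change -0.97 ± 0.04, SE) and 0.493 for Snrpd2 (-0.95 ± 0.06). Snrpf, the F protein, was lower by less, with 32.62, 34.18 and 38.40 FPKM in MHCII-hi and 48.41, 52.51 and 50.89 FPKM in MHCII-lo (log2 change -0.52 ± 0.06). The limma adjusted p was 2.92e-06 for Snrpg, 1.23e-05 for Snrpd2 and 0.000312 for Snrpf.

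The D1 and D3 proteins, partners of D2 and B in the ring, changed least. Snrpd1 had 35.35, 37.81 and 36.51 FPKM in MHCII-hi and 43.28, 44.10 and 42.49 FPKM in MHCII-lo (log2 change -0.24 ± 0.03 SE, limma adjusted p = 0.000465). Snrpd3 had 20.73, 20.52 and 18.92 FPKM in MHCII-hi and 23.80, 23.15 and 22.58 FPKM in MHCII-lo (log2 change -0.20 ± 0.04, adjusted p = 0.00455). Neither gene overlapped between fractions, yet the changes of Snrpd1 and Snrpd3 were small beside that of Snrpe. With each library's trend on length and GC content removed, Snrpd1 lost its call (log2 change 0.03, adjusted p = 0.494), and with median-of-ratios scaling Snrpd3 lost its call (-0.11, adjusted p = 0.0515). Summed over the ring, Sm transcripts came to 183 ± 3.99 FPKM in MHCII-hi and 313 ± 7.45 FPKM in MHCII-lo, a ratio of 0.585. Snrpn, the neuronal relative of Snrpb and an imprinted gene, was listed at 0 in the 3 MHCII-hi libraries and at 0.03, 0.06 and 0.03 FPKM in MHCII-lo, below the minimum for testing.

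Of the 8 proteins of the LSm rings, 7 were lower in MHCII-hi, beside 40.5% of all genes tested. None was higher and Lsm2 did not pass the test, with a median log2 change of -0.50. Lsm5, shared by both LSm rings (chromosome 6, 56701063 to 56704710, minus strand), showed the lowest ratio of any tested member. It had 7.88, 5.11 and 9.21 FPKM in MHCII-hi and 31.84, 27.73 and 30.40 FPKM in MHCII-lo. The MHCII-hi libraries differed among themselves but all lay far below MHCII-lo. The mean was 7.40 ± 2.09 FPKM in MHCII-hi and 29.99 ± 2.09 FPKM in MHCII-lo (SD, n = 3 each), a ratio of 0.247, with a log2 change of -1.91 ± 0.18 (SE, limma adjusted p = 9.61e-05). Lsm7, also in both rings (chromosome 10, 80852821 to 80855209, minus strand), had 4.58, 3.70 and 2.49 FPKM in MHCII-hi and 9.58, 10.53 and 7.84 FPKM in MHCII-lo. Its ratio was 0.385 and its log2 change -1.19 ± 0.18 (SE, limma adjusted p = 0.00104). Lsm5 and Lsm7 had the widest errors of the ring proteins, and both share sequence with pseudogenes, as described further on.

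Lsm6 (chromosome 8, 78804865 to 78821140, minus strand) had 10.20, 9.30 and 8.74 FPKM in MHCII-hi and 16.68, 18.16 and 16.37 FPKM in MHCII-lo, a log2 change of -0.80 ± 0.06 (SE, limma adjusted p = 3.98e-05). Lsm3 had 13.46, 13.86 and 13.73 FPKM in MHCII-hi and 18.25, 19.26 and 19.32 FPKM in MHCII-lo, a change of -0.44 ± 0.03 (adjusted p = 2.99e-05). Lsm4, which carries a long tail rich in glycine and arginine, changed less. It had 34.72, 33.74 and 35.48 FPKM in MHCII-hi and 43.71, 42.53 and 42.21 FPKM in MHCII-lo (-0.30 ± 0.03, adjusted p = 8.81e-05). Lsm3, Lsm4 and Lsm6 are common to the nuclear and the cytoplasmic ring, and none of them overlapped between fractions. Lsm2, equally common to both rings, had 7.74, 6.95 and 7.45 FPKM in MHCII-hi and 7.69, 7.34 and 7.78 FPKM in MHCII-lo, with overlapping fractions (-0.04 ± 0.05, adjusted p = 0.491).

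The subunits that set the LSm rings apart were both lower. Lsm8, the subunit of the nuclear ring on U6 RNA, had 6.29, 5.71 and 6.10 FPKM in MHCII-hi and 9.95, 8.85 and 9.38 FPKM in MHCII-lo (log2 change -0.56 ± 0.05 SE, limma adjusted p = 0.000102). Lsm1, the subunit of the cytoplasmic decay ring, had 3.21, 3.61 and 3.69 FPKM in MHCII-hi and 4.45, 4.29 and 4.71 FPKM in MHCII-lo (-0.28 ± 0.06, adjusted p = 0.00459). Within each library the level of Lsm1 over that of Lsm8 was 0.510, 0.632 and 0.605 in MHCII-hi and 0.447, 0.485 and 0.502 in MHCII-lo. The fractions did not overlap in this ratio, and the two-sided exact permutation p was 0.10, the smallest that 3 libraries against 3 allow. With 3 libraries per fraction this test cannot pass 0.05, so it does not decide whether Lsm1 and Lsm8 responded differently. Transcripts of the LSm rings summed to 85.7 ± 3.23 FPKM in MHCII-hi and 140 ± 2.22 FPKM in MHCII-lo, a ratio of 0.613.

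The ring proteins particular to U7 were low or only slightly changed. Lsm11, which contacts the histone processing machinery, had 1.03, 1.45 and 1.36 FPKM in MHCII-hi and 1.97, 2.15 and 1.81 FPKM in MHCII-lo, without overlap (log2 change -0.39 ± 0.09 SE, limma adjusted p = 0.00905). At these low values the pseudocount matters, and 0.1 in place of 1 gave -0.60 for Lsm11. Lsm10 had 8.53, 9.40 and 8.50 FPKM in MHCII-hi and 10.43, 9.19 and 10.30 FPKM in MHCII-lo. Here the fractions overlapped, the call was marginal (-0.16 ± 0.06, adjusted p = 0.0486), and it was lost in 10 of 15 other settings.

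Of 11 particle-specific proteins tested, 7 were lower, 2 were higher and 2 did not pass, with a median log2 change of -0.12. Over all genes tested, 40.5% were lower and 27.2% higher. The U1 particle recognises the 5′ splice site. Snrnp70, its largest specific protein (chromosome 7, 45376453 to 45395742, minus strand), had 36.21, 35.33 and 36.74 FPKM in MHCII-hi and 32.59, 32.60 and 32.38 FPKM in MHCII-lo. Snrpa, the U1 A protein (chromosome 7, 27187005 to 27196271, minus strand), had 19.06, 19.85 and 19.32 FPKM in MHCII-hi and 17.37, 17.22 and 18.10 FPKM in MHCII-lo. For both, the lowest MHCII-hi library lay above the highest MHCII-lo library, by a small amount: the log2 change was 0.15 ± 0.02 for Snrnp70 and 0.14 ± 0.03 for Snrpa (SE, limma adjusted p = 0.00137 and 0.00704). With the length and GC trend removed the call of Snrnp70 was lost (0.04, limma adjusted p = 0.146). Snrpa shares sequence with processed pseudogenes, as described further on. Snrpc, the U1 C protein that steadies the pairing of U1 with the splice site, had 6.68, 7.79 and 7.09 FPKM in MHCII-hi and 7.28, 7.12 and 7.22 FPKM in MHCII-lo, which overlapped (-0.01 ± 0.05, adjusted p = 0.933).

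The proteins of the U2 particle, which binds the branch point, had the lowest log2 changes of the particle-specific proteins, with the minor spliceosome protein Snrnp25 close to them. Snrpa1, the U2 A′ protein (chromosome 7, 66059003 to 66074587, plus strand), had 11.62, 10.96 and 11.43 FPKM in MHCII-hi and 18, 16.95 and 17.46 FPKM in MHCII-lo. Its partner Snrpb2, the U2 B″ protein (chromosome 2, 143063039 to 143072853, plus strand), had 18.69, 17.71 and 17.70 FPKM in MHCII-hi and 27.15, 25.52 and 27.58 FPKM in MHCII-lo. Neither gene overlapped between fractions. The log2 change was -0.58 ± 0.04 for Snrpa1 and -0.54 ± 0.04 for Snrpb2 (SE, limma adjusted p = 1.33e-05 and 2.61e-05), and their sum stood at a ratio of 0.664, beside 1.09 for the U1 proteins. Snrpa and Snrpb2 are related RNA-binding proteins of different particles, and their changes ran in opposite directions.

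In U5 and the U4/U6.U5 tri-snRNP, Snrnp40, a WD-repeat protein of U5, had 12.79, 12.49 and 13.42 FPKM in MHCII-hi and 15.26, 16.55 and 16.16 FPKM in MHCII-lo (log2 change -0.29 ± 0.04 SE, limma adjusted p = 0.000835). Snrnp200, the helicase that unwinds U4 from U6, had 26.86, 26.48 and 27.22 FPKM in MHCII-hi and 29.59, 29.63 and 28.83 FPKM in MHCII-lo (-0.12 ± 0.02, adjusted p = 0.00368). Both were separate between fractions, but the change of Snrnp200 was close to the median of all genes, and its call was lost with median-of-ratios scaling. Snrnp27, a tri-snRNP protein, overlapped, with 11.98, 9.37 and 11.29 FPKM in MHCII-hi and 11.38, 10.77 and 11.45 FPKM in MHCII-lo (-0.04 ± 0.08, adjusted p = 0.655).

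The proteins specific to U11 and U12, the particles that recognise the minor class of introns, gave calls that were often lost under other settings. Snrnp25 had 7.25, 7.12 and 11.59 FPKM in MHCII-hi and 12.63, 12.81 and 11.89 FPKM in MHCII-lo. A single MHCII-hi library stood close to the MHCII-lo range, and the call (log2 change -0.51 ± 0.16 SE, limma adjusted p = 0.0300) was lost in 7 of 15 other settings. Snrnp35, the minor counterpart of Snrnp70, had 5.42, 3.54 and 4.6 FPKM in MHCII-hi and 6.09, 5.81 and 6.44 FPKM in MHCII-lo (-0.38 ± 0.12, adjusted p = 0.0285, lost in 6 of 15). Without MHCII-hi library 2, the lowest, the change of Snrnp35 was -0.25. Snrnp48 had 6.39, 6.26 and 6.46 FPKM in MHCII-hi and 6.70, 7.01 and 7.01 FPKM in MHCII-lo (-0.10 ± 0.04, adjusted p = 0.0419, lost in 9 of 15). All MHCII-hi libraries lay below all MHCII-lo libraries for these 3 genes, as for 43.3% of all genes tested.

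Of the 3 other LSm-domain proteins, Lsm14a was lower and the other 2 did not pass. Lsm14a, a translational repressor found in P-bodies, had 22.93, 21.94 and 22.61 FPKM in MHCII-hi and 26.73, 27.17 and 27.24 FPKM in MHCII-lo (log2 change -0.26 ± 0.03 SE, limma adjusted p = 0.000157). Its paralog Lsm14b had 8.85, 10 and 9.78 FPKM in MHCII-hi and 9.94, 9.24 and 9.32 FPKM in MHCII-lo, which overlapped (adjusted p = 0.940). Lsm12, which carries an RNA-binding LSm domain and belongs to none of these rings, overlapped too, with 13.36, 12.25 and 12.82 FPKM in MHCII-hi and 13, 13.03 and 11.92 FPKM in MHCII-lo (adjusted p = 0.767).

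**Figure D2:**
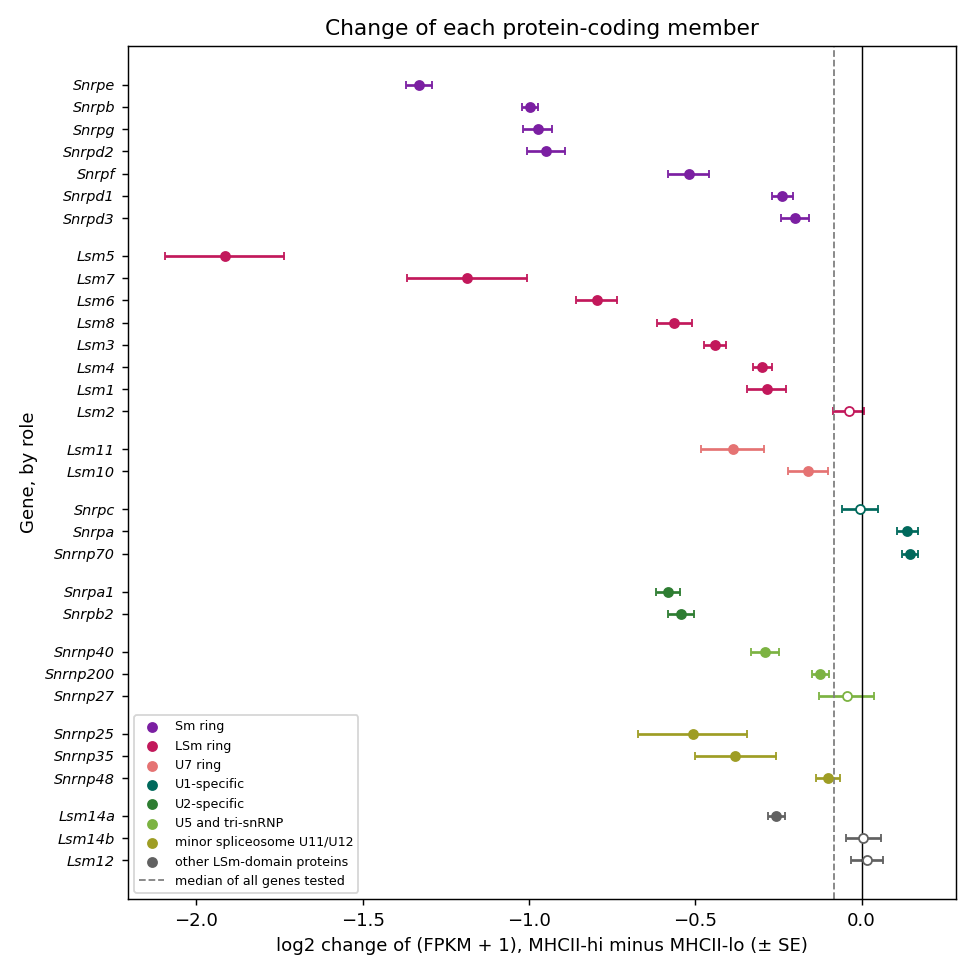
Log2 change of each tested protein-coding member on the log2(FPKM + 1) scale, MHCII-hi minus MHCII-lo, with its SE, grouped by role. Filled points passed the limma test and open points did not. The Sm and LSm rings reach from -1.91 for Lsm5 to -0.04 for Lsm2, and the particle-specific proteins from -0.58 for Snrpa1 to 0.15 for Snrnp70.

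Small ring proteins and particle-specific proteins were then set side by side. Ring proteins had a median length of 118.5 amino acids on transcripts of a median 873 bases, and particle-specific proteins 255 amino acids on 1316 bases. Of the ring proteins 16 of 17 tested were lower and none was higher, against 7 lower and 2 higher of 11 particle-specific proteins. The shares over all genes tested were 40.5% lower and 27.2% higher. Among the lower calls, 3 of 17 ring proteins and none of 11 particle-specific proteins had a log2 change of -1 or less, beside 1.46% of all genes tested. All MHCII-hi libraries lay below all MHCII-lo libraries for 15 of 17 ring and 7 of 11 particle-specific proteins, beside 43.3% of all genes tested. All lay above for none of the ring and 2 of 11 particle-specific proteins, beside 29.6%. The 18 ring transcripts summed to 277, 274 and 284 FPKM in MHCII-hi and 459, 468 and 466 FPKM in MHCII-lo, a ratio of 0.600. The 11 particle-specific transcripts summed to 163, 157 and 167 FPKM in MHCII-hi and 184, 182 and 185 FPKM in MHCII-lo, a ratio of 0.884.

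The median log2 change was -0.52 for ring and -0.12 for particle-specific proteins, a difference of -0.40, for which no test over the genes was run. The difference of these medians, each the value of a single middle gene, shrank when the trend on transcript length and base composition was removed. Over the 11799 tested genes with an annotated length, immunoglobulin segments left out, the median log2 change was -0.23 for transcripts of up to 600 bases, -0.28 from 600 to 800 bases and 0.03 over 5000 bases. Across genes, the change correlated with log2 transcript length at Pearson's r = 0.40 and Spearman's rho = 0.39 in 31 protein-coding members, and at 0.17 and 0.21 in 11799 genes. These genes share the same 6 libraries and are not independent replicates. With each library's trend on length and GC content removed, the median was -0.30 for ring and -0.24 for particle-specific proteins, a difference of -0.06. The lowest members stayed low under that setting: Lsm5 at -1.69, Lsm7 at -1.09, Snrpe at -1.06, Snrpb at -1.01, Snrpd2 at -0.90, Snrpg at -0.77 and Lsm6 at -0.72, each still past the test. Others ended nearer to 0, with Snrpf at -0.29, Lsm8 at -0.30, Lsm3 at -0.19 and Snrpd3 at -0.12, still past the test. Snrpd1 and Lsm10 ended without a call, while Snrnp200 moved away from 0 to -0.26. The U2 proteins Snrpb2 and Snrpa1 were then at -0.49 and -0.46. Of these lowest members, Snrpe (from -1.33), Lsm5 (from -1.91) and Snrpg (from -0.97) moved about as far as the ring median, Snrpe slightly further. Lsm7 (from -1.19), Snrpd2 (from -0.95) and Lsm6 (from -0.80) moved less, and Snrpb hardly moved. Whether the trend arose in the cells or in library preparation was not tested.

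**Figure D3:**
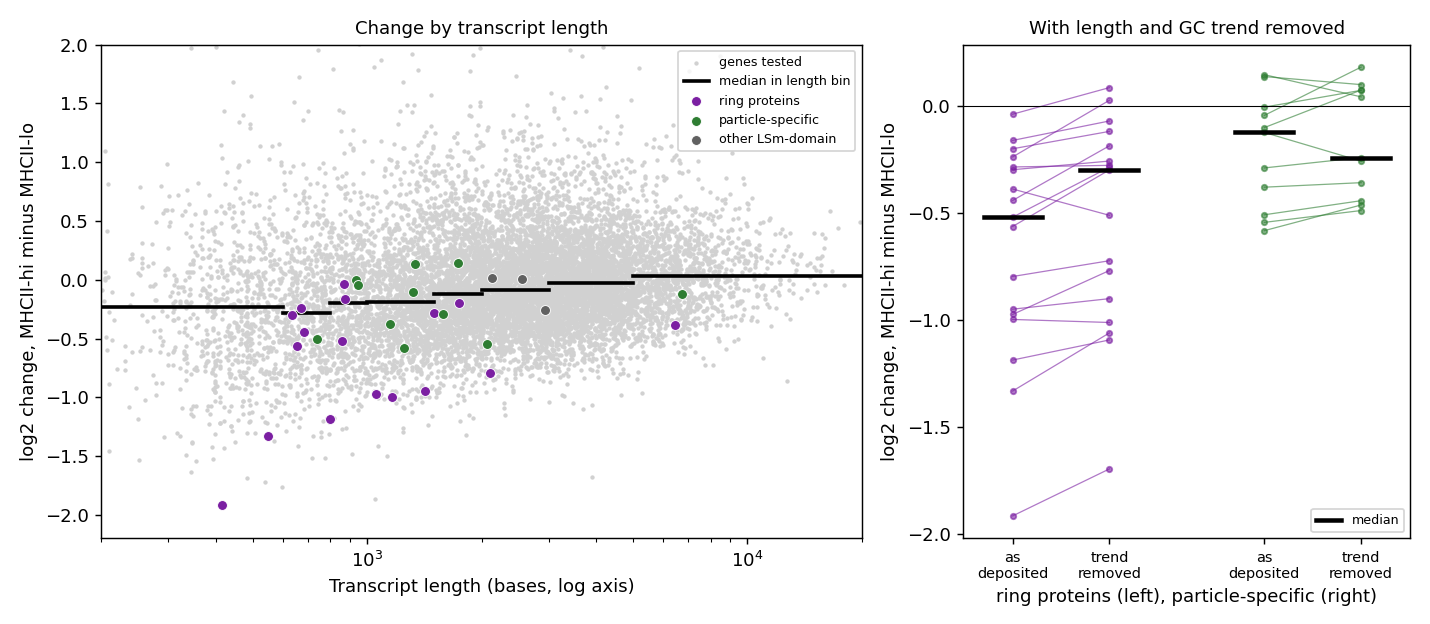
Left, log2 change of each gene tested against annotated transcript length (log axis), with the median per length bin as black bars. Genes beyond the ends of the vertical axis are not drawn, and immunoglobulin segments were left out. Right, the ring and the particle-specific proteins as deposited and with the length and GC trend removed, with medians moving to -0.30 and -0.24.

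Several ring proteins have processed pseudogenes, copies of their spliced mRNA inserted elsewhere in the genome, and short reads cannot always tell copy and gene apart. The sources used here do not give how the authors' counting treated such reads. Snrpert (chromosome 2, 131322088 to 131322366, minus strand) is an intronless copy of Snrpe that lies inside the gene Rnf24 on the same strand. It had 12.94, 11.16 and 16.48 FPKM in MHCII-hi and 30.96, 28.61 and 22.99 FPKM in MHCII-lo, while Rnf24 had 3.76, 3.18 and 3.76 FPKM in MHCII-hi and 2.56, 2.10 and 2.80 FPKM in MHCII-lo. The log2 change of Snrpert was -0.98 ± 0.15 (SE, limma adjusted p = 0.00126), the same direction as Snrpe. Of the 50-base words of Snrpert, 55.6% also occur in Snrpe transcripts, so that reads over these stretches fit both.

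Lsm5, the lowest member, has a pair of expressed copies, Gm7846 (chromosome 1, 28580499 to 28580772, minus strand) and Gm10074 (chromosome 17, 36226023 to 36226271, plus strand). Gm7846 had 12.45, 10.73 and 11.44 FPKM in MHCII-hi and 14.93, 27.36 and 22.41 FPKM in MHCII-lo. Gm10074 had 15.49, 25.55 and 14.69 FPKM in MHCII-hi and 17.08, 16.62 and 18.17 FPKM in MHCII-lo. The MHCII-hi library with the lowest Lsm5 value was the one with the highest Gm10074 value. The coding sequence of Lsm5 and the matching stretches of the copies, from the GRCm38 annotation, are shown 5′ to 3′ because the copies differ from Lsm5 by 1 base (G253A, Gm7846) and 2 bases (G48A and A193C, Gm10074), counted from 1 at the A of the Lsm5 start codon with the Lsm5 base first. Capitals in the copies mark these bases, and the stretches cover bases 29 to 275 and 25 to 273 of the Lsm5 coding sequence.
Lsm5: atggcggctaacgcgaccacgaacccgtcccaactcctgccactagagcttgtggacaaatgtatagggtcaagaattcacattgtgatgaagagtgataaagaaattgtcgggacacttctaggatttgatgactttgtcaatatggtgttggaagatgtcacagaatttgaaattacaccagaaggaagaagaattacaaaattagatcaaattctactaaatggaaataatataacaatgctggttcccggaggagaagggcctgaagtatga
Gm7846: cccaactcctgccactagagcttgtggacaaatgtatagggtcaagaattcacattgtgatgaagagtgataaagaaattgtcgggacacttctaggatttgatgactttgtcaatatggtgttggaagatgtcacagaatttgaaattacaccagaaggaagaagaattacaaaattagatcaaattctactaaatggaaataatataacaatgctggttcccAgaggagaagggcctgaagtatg
Gm10074: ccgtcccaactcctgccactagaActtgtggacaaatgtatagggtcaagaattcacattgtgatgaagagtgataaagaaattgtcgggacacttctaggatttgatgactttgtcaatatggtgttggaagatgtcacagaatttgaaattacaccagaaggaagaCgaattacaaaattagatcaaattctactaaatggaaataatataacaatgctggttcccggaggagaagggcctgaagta

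With the copies added, the 6 ring proteins that have a copy averaging at least 1 FPKM were still lower. The changes of Lsm5 and Lsm7 shrank most. Lsm5 with both copies came to 35.82, 41.39 and 35.34 FPKM in MHCII-hi and 63.85, 71.71 and 70.98 FPKM in MHCII-lo, a ratio of 0.545 against 0.247 alone. Weighting each row by its transcript length gave a ratio of 0.479. The summed log2 change was -0.86 ± 0.07 (SE, limma adjusted p = 5.13e-05). Lsm7 and its copy Gm10146 are identical over 309 coding bases. Gm10146 had 12.53, 11.24 and 17.04 FPKM in MHCII-hi and 13.39, 15.20 and 21.59 FPKM in MHCII-lo, more than Lsm7 itself in every library. Their sum had a ratio of 0.660 against 0.385 for Lsm7 alone, with a log2 change of -0.57 (adjusted p = 0.00389). Weighted by transcript length, the ratio was 0.561. Snrpg and Gm8186 are identical over 231 coding bases, and Gm8186 had 20.80, 29.57 and 18.77 FPKM in MHCII-hi and 38.72, 36.64 and 36.12 FPKM in MHCII-lo. Their sum had a ratio of 0.552 against 0.499 alone, the sum of Snrpe and Snrpert 0.422 against 0.386, and the sum of Snrpf and Gm13092 0.650 against 0.693. With the length weights these ratios were 0.517 for Snrpg, 0.408 for Snrpe and 0.678 for Snrpf. Lsm12 had no call alone and passed as lower with its copy Gm9727 (log2 change -0.09, limma adjusted p = 0.0450). Snrpc had no call alone or with Gm2991 (limma adjusted p = 0.891). Processed pseudogenes averaging under 1 FPKM were not added. These were Gm10120 for Snrpd2, Gm13182 for Lsm7, Gm8849 for Snrpc, and Gm5145, Gm21559, Gm8655 and Gm8587 for Snrpa. Of the 50-base words of Snrpa, 18.9% also occur in other transcripts.

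**Figure D4:**
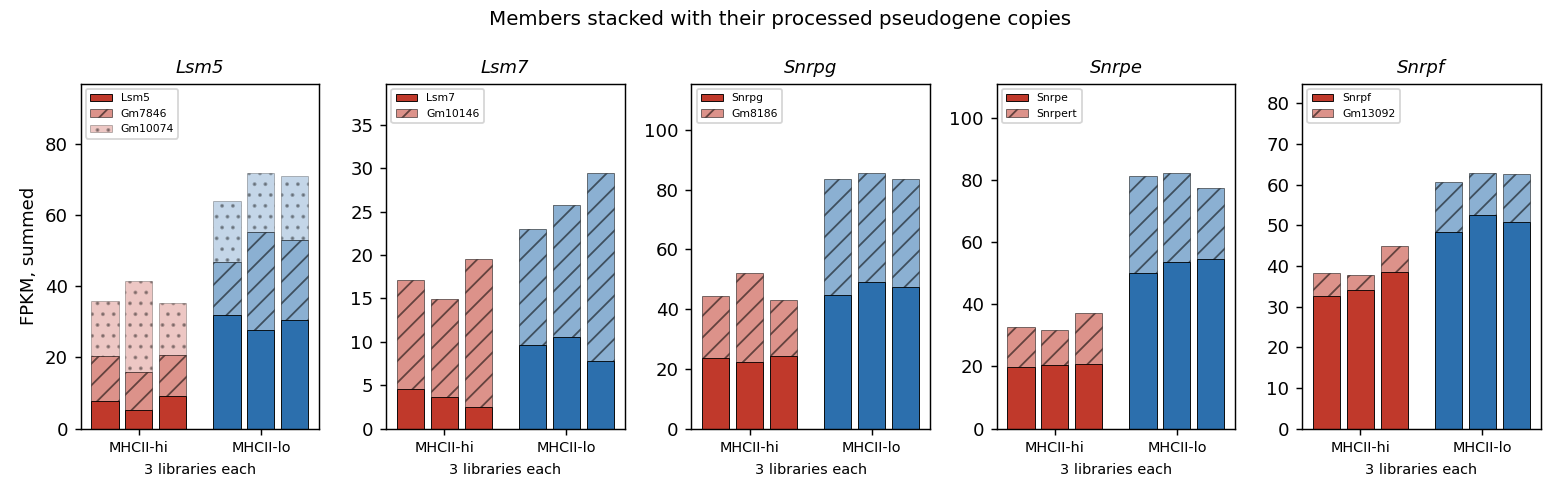
FPKM of 5 members stacked with their processed pseudogene copies, 1 bar per library, MHCII-hi in red left of MHCII-lo in blue. Solid bars are the member and hatched or dotted bars the copies. The stacked totals are lower in MHCII-hi for all 5. As a ratio of MHCII-hi to MHCII-lo, the total changes less than the member alone for Lsm5, Lsm7, Snrpg and Snrpe. For Snrpf it changes more.

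Overlapping genes are a further limit for single members. Snrpf, Snrpd3, Snrpa and Snrpg each overlap a gene on the opposite strand (Ccdc38, Gucd1, BC024978 and Gm44941, in the annotation of GRCm38), as do Snrnp70 (the snoRNA Gm22478) and Lsm14a (Gm12774, Gm12764 and 2310043P16Rik). The library kit keeps the strand, but the sources used here do not say whether the counting used it. On the same strand, which no strand setting separates, Snrpa1 overlaps Gm45213 over 3269 bases, and 8.34% of its 50-base words also occur there. Lsm3 overlaps AC161456.1, with 18.2% of its 50-base words shared, and Lsm14a overlaps Gm44567.

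Promoter windows from RefSeq (GRCm38.p6, 250 bases before to 50 after the start) were at hand for 26 of 33 members. They were rich in CpG, with a median of 21.5 per window, beside 7 over all 32851 windows. The GC box GGGCGG, searched on both strands as were all motifs, occurred in 20 of 26 member windows and in 35.7% of all windows. The ETS core CCGGAAG occurred in 7 of 26 (8.9% of all windows), the CCAAT box in 9 of 26 (37.4%), the TATAAA box in 2 of 26 (13.6%), the NRF1 core CGCATGCG in 3 of 26 (1.9%), and the YY1 core AAGATGGC and the E-box CACGTG in 1 of 26 each (2.7% and 7.2%). The CCAAT box was in 7 of 14 ring windows and 1 of 10 particle-specific windows. These are letter matches, not measured binding. The 32851 windows were not limited to the genes tested here. Whether member windows differ from those of other expressed genes was not tested. The windows of the lowest member, Lsm5, and of the U1 protein with the largest rise, Snrnp70, are printed 5′ to 3′ on the gene's strand to show how they differ in letters, with motif matches in capitals. Lsm5 (chr6:56704650-56704949, minus strand) holds 2 ETS cores, 1 GC box and 1 CCAAT box with 18 CpG, and Snrnp70 (chr7:45395693-45395992, minus strand) holds 4 NRF1 cores and 1 GC box with 28 CpG.
Lsm5 promoter: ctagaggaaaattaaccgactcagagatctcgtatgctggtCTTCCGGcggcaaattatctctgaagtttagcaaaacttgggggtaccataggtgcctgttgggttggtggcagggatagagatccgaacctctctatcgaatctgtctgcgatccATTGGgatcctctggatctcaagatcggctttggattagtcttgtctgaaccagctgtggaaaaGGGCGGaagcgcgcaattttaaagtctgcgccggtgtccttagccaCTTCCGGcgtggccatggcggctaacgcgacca
Snrnp70 promoter: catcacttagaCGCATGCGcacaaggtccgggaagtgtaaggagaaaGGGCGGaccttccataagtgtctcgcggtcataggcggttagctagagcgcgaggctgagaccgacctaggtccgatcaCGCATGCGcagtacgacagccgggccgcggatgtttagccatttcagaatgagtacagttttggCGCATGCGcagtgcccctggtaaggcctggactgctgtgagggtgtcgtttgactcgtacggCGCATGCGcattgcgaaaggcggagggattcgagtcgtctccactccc

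The genes that build and use these particles were read from 9 further lists. Of 19 genes of snRNP assembly and import tested, 13 were lower, none was higher and 6 did not pass, with a median log2 change of -0.26. Over all genes tested, 40.5% were lower. Gemin6, a subunit of the SMN complex, averaged 5.34 ± 0.777 FPKM in MHCII-hi and 10.4 ± 0.661 FPKM in MHCII-lo (SD, n = 3 each, log2 change -0.85). Gemin2, the SMN partner that cradles the Sm ring, averaged 4.12 ± 0.381 FPKM in MHCII-hi and 7.74 ± 0.209 FPKM in MHCII-lo (-0.77). Clns1a, the chaperone pICln that holds Sm proteins before assembly, averaged 11.8 ± 0.455 FPKM in MHCII-hi and 19.5 ± 0.140 FPKM in MHCII-lo (-0.68). Ncbp2, the small subunit of the cap-binding complex, averaged 14.9 ± 0.289 FPKM in MHCII-hi and 24.4 ± 0.872 FPKM in MHCII-lo (-0.67). These 4 genes were named for the largest changes of the list, so their size does not describe the list as a whole. Their direction was that of most ring proteins.

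Other spliceosome lists lay nearer to the median of all genes. A list of 12 tested genes held the U2 SF3A and SF3B genes together with U2af1 and U2af2, which belong to neither. Of these, 7 were lower and Sf3a2 was higher (median -0.15). Phf5a, a small SF3B subunit, had 12.97, 13.17 and 12.85 FPKM in MHCII-hi and 19.56, 23.93 and 23.53 FPKM in MHCII-lo (log2 change -0.73). Sf3a3 was at -0.50, Sf3b6 at -0.46 and U2af1 at -0.39. Of 13 other U4/U6.U5 proteins, 9 were lower and none was higher (median -0.22). Ppih, a small cyclophilin of the tri-snRNP, had 2.07, 2.6 and 4.55 FPKM in MHCII-hi and 5.18, 9.78 and 12.63 FPKM in MHCII-lo (-1.30 ± 0.33 SE, limma adjusted p = 0.0115), and Prpf31, Prpf4 and Snu13 were at -0.40, -0.32 and -0.30. Of 10 genes of the Prp19 complex and related factors, 6 were lower and Aqr was higher (median -0.20), led by Plrg1 at -0.30 and Prpf19 at -0.29, with Bcas2 and Isy1 at -0.21 each. Of 5 other minor spliceosome proteins none was lower, and Zrsr1, a relative of the minor-intron factor Zrsr2, was higher, at 3.41 ± 0.0764 FPKM in MHCII-hi and 2.47 ± 0.140 FPKM in MHCII-lo (0.35).

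Partners of the cytoplasmic Lsm1 ring were mixed. Of 12 decapping and P-body genes tested, 4 were lower, 4 were higher and 4 did not pass (median -0.03). Dcp2, the decapping enzyme, was the lowest, at 5.27 ± 0.145 FPKM in MHCII-hi and 8.89 ± 0.460 FPKM in MHCII-lo (log2 change -0.66), while its cofactor Dcp1b was at 0.35, Patl1, the scaffold that binds the Lsm1 ring, at 0.25 and Edc4, a decapping enhancer, at 0.24. Of 7 tested partners of U7 in histone mRNA processing, 4 were lower and none was higher (median -0.25). Eri1, an exonuclease that acts on the histone stem-loop, was at -0.50, the stem-loop binding protein Slbp at -0.48, Cpsf2 at -0.27 and Casp8ap2 at -0.25. Of 10 tested SR proteins, 7 were lower and Srsf5 and Srsf11 were higher (median -0.32), with Srsf1 at 53.5 ± 0.769 FPKM in MHCII-hi and 88.2 ± 0.791 FPKM in MHCII-lo (-0.71), and Srsf9, Srsf3 and Srsf7 at -0.58, -0.53 and -0.45. Of 20 hnRNP proteins, 16 were lower and Hnrnpul1 was higher (median -0.26), with Hnrnpll at -0.67, Hnrnpa0 at -0.65, Hnrnpf at -0.56 and Hnrnpa1 at -0.44. All genes named here passed the limma test, and these shares stand beside the 40.5% lower and 27.2% higher of all genes tested.

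**Figure D5:**
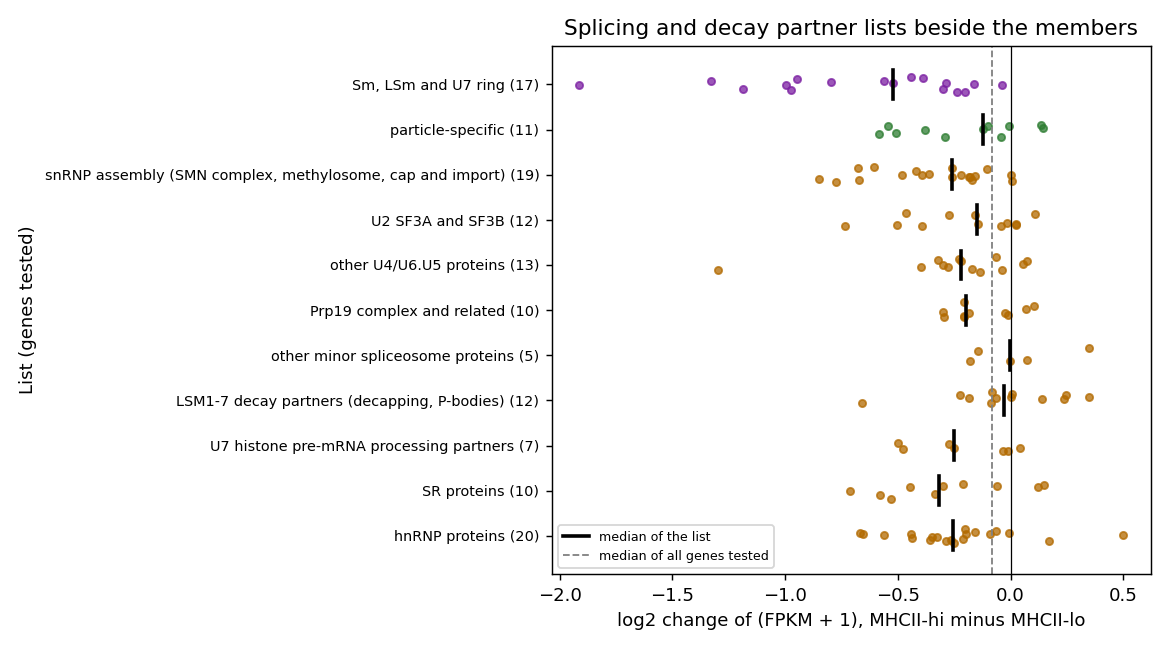
Log2 change of each tested gene on the log2(FPKM + 1) scale, MHCII-hi minus MHCII-lo, in the ring and particle-specific classes and in 9 lists of splicing and decay partners, 1 point per gene. Thick bars are list medians and the dashed line is the median of all genes tested, -0.08. The ring class has the lowest median, -0.52. The list labelled U2 SF3A and SF3B also holds U2af1 and U2af2.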

How the data were processed

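RNA was sequenced from sorted MHCII-hi and MHCII-lo bone marrow cells, with poly(A) stranded libraries per the labels' protocols. Tools listed in the submitters' processing notes are fastp, HISAT2 and StringTie, without settings, and the builds listed are GRCm38 and mm10. Each deposited file gives a symbol and a value per gene, taken here as FPKM scaled by the authors to library size and transcript length, as inferred from the values, since the headers name no unit. FPKM gives no read counts, so depth and counting error are unknown. Reads that fit several near-identical genes may have been shared among them, and a rise of abundant transcripts lowers all other FPKM.

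Groups came from the cell subtype in the labels. Symbols that occurred more than once numbered 67, and of each such group the most abundant row kept the symbol. Genes averaging 1 FPKM or more over the 6 libraries were compared on log2(FPKM + 1) in limma 3.58.1 under R 4.3.3, with moderated variances that follow the mean. Tests were two-sided, with a threshold of 0.05 on the Benjamini-Hochberg adjusted p. A log2 change on this scale understates that of low genes, and ratios are of mean FPKM. Coordinates, lengths and sequences came from GENCODE M21 of GRCm38, which matched 96.6% of symbols to 1 gene, and promoters from RefSeq. Transcripts sharing at least 5% of 50-base words with a member were listed as copies where they averaged at least 1 FPKM.

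The members and lists were chosen with earlier results of these data known. The text names every member and, from each partner list, up to 4 genes with the largest changes past the test, plus single exceptions in direction. Alternatives were other pseudocounts, filters and scalings, no variance trend, a replicate block, each library left out, removal of the length and GC trend and, added after seeing the data, leaving out the pseudogene and summing copies. The sequences of some members and copies are not reported here.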

Additional observations from a re-analysis of the deposited data

How the results depend on the processing

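Of 27 called members, 19 kept their call under every setting run, and over all members and settings 431 values kept their direction and side of the threshold, 36 calls were lost and 21 values changed sign, 2 of them with a lost call. The median log2 change of ring proteins was -0.60 and -0.63 at pseudocounts of 0.1 and 0.01, -0.48 without a filter, -0.56 at 5 FPKM, -0.49 with quantile normalization, -0.43 with median-of-ratios scaling, -0.30 with the length and GC trend removed, -0.56 with copies summed, and -0.57 to -0.47 with 1 library left out. That of particle-specific proteins was -0.10 with quantile normalization, -0.031 with median-of-ratios scaling, -0.24 with the length and GC trend removed and -0.14 to -0.11 with 1 library left out. Ring minus particle-specific was -0.47 and -0.51 at pseudocounts of 0.1 and 0.01, -0.36 without a filter, -0.44 at 5 FPKM, -0.058 with the length and GC trend removed, -0.44 with copies summed, and -0.44 to -0.35 with 1 library left out. With the length and GC trend removed, 1 member was called higher and 22 lower, and with median-of-ratios scaling 2 and 19. Leaving out 1 library gave 21 to 23 members lower and 7579 to 7958 genes called.

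The sign changed for members near 0: Snrnp27 (0.043 with median-of-ratios scaling, 0.18 with the length and GC trend removed, -0.11 to 0.050 with 1 library left out), Snrpc (0.0078 with quantile normalization, 0.078 and 0.073 with those 2 settings, -0.058 to 0.039), Lsm2 (0.046 and 0.085), Lsm12 (-0.086 with its copy, -0.022 to 0.047) and Lsm14b (-0.030 with the trend removed, -0.026 to 0.053). With the trend removed Snrpd1 was at 0.026 and Snrnp48 at 0.074, without a call. Apart from the trend removal and the sums, the causes were not tested. Deviations of same-numbered libraries from their fraction's mean correlated little (r = 0.063, 0.0019 and 0.080), beside -0.095 to 0.025 for differently numbered ones. With 3 libraries per fraction these values do not decide whether the numbers pair the libraries. A replicate block called 8031 genes and changed 2 members, Lsm10 (adjusted p = 0.104) and Snrnp48 (adjusted p = 0.0914).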
